A study of Mus musculus with 6 samples.

Results

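The 8 genes described here (Nos3, Prkg1, Pde5a, Edn1, Ece1, Ednra, Ptgis and Ptgir) act in the 3 signalling routes that set the tone of the pulmonary vessels around birth: nitric oxide, endothelin and prostacyclin. They were chosen by name for that function, with earlier results of these data known. All 8 were found among the 24521 genes of the authors' normalized table and among the 19042 genes that had enough reads to be tested. RNA was measured in whole lobes of E18.5 mouse lungs that had not yet held air. The 2 groups were 3 lungs homozygous for the FDC allele of Mll3 (Mll3FDC/FDC, called Mll3 KO here) and 3 wild-type (WT) lungs of the same age. Mll3, whose gene symbol is Kmt2c, methylates histone H3 at lysine 4. What the allele removes, the strain, and whether the lungs came from separate litters are not given in the labels, so the p-values below measure the spread between these samples.

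In the fetal lung the pulmonary vessels are narrow and most blood bypasses the lung, and at the first breaths they dilate. Endothelial nitric oxide synthase makes nitric oxide, which raises cyclic GMP in smooth muscle and relaxes it through cyclic GMP-dependent protein kinase, and phosphodiesterase 5 ends that signal by breaking cyclic GMP down. Prostacyclin relaxes the same muscle through cyclic AMP, and endothelin-1 contracts it through the endothelin A receptor. In a whole lung, fewer cells of a type and less RNA per cell cannot be told apart.

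None of the 8 genes passed the test in Mll3 KO lungs (edgeR's quasi-likelihood test, p-values adjusted by Benjamini-Hochberg over all tested genes, threshold 0.05), where 0.368% of all tested genes did, 0.305% lower and 0.0630% higher in Mll3 KO. DESeq2 also called 0 of the 8, against 2.12% of the genes for which it gave an adjusted p. An unadjusted p under 0.05 was reached by 3 of the 8 (Prkg1, Ece1 and Ptgir) and by 10.7% of all tested genes. The genotypes did not overlap in 2 of the 8, Prkg1 and Ece1, where every Mll3 KO library was below every WT library. They did not overlap in 17.0% of all tested genes, with 8.45% of all tested genes lower and 8.60% higher in Mll3 KO. Of the 8 genes 3 were higher and 5 lower in Mll3 KO in point estimate, with a median log2 fold change of -0.13, where the median of all tested genes was 0.01.

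Library totals ran from 20158689 to 23305306 reads, so that 1 CPM (read counts scaled to library size with TMM factors) stood for 20.4 to 23.9 reads. Kmt2c, read as a check of the labels, was at 143, 171 and 159 CPM in Mll3 KO lungs 1 to 3, against 162, 179 and 162 CPM in WT lungs 1 to 3 (log2 fold change -0.09 ± 0.08 SE, edgeR adjusted p = 0.74). Counts over the whole gene cannot check a genotype whose deleted stretch is not known. Mll3 KO 3 held 59951 reads of Xist and 4 of Y-linked genes, whereas the other 5 libraries held 6 to 27 and 7414 to 9300. Mll3 KO 1 was the highest or the lowest library for 6 of the 8 genes, as it was for 50.0% of all tested genes. The sample titles carry a number prefix whose meaning is not stated: AK7986 on Mll3 KO 1, WT 1 and WT 2, and AK7987 on Mll3 KO 2, Mll3 KO 3 and WT 3. With that prefix as a term, 0 of the 8 genes passed, against 3.28% of all tested genes (2.54% lower in Mll3 KO). Without Mll3 KO 3, the 1 library with Xist reads, 0 of the 8 passed and no sign turned: Prkg1 was at a log2 fold change of -0.38, Ece1 at -0.22, Ptgir at 0.79 and Nos3 at 0.27.

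The upstream sequences of 3 genes are shown because these 3 had an unadjusted p under 0.05. Each runs 5′ to 3′ over the 250 bases before the gene's start in RefSeq on GRCm38.p6 (mm10), with CG dinucleotides in capitals, a feature by which mouse promoters are commonly grouped. Prkg1 lies at chr19:31765034-31765283 on the minus strand, Ece1 at chr4:137861987-137862236 on the plus strand and Ptgir at chr7:16906240-16906489 on the plus strand.
Prkg1: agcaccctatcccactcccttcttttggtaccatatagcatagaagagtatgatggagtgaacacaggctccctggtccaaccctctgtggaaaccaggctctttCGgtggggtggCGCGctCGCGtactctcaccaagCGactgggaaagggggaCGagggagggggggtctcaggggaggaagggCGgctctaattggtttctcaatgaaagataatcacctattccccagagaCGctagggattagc
Ece1: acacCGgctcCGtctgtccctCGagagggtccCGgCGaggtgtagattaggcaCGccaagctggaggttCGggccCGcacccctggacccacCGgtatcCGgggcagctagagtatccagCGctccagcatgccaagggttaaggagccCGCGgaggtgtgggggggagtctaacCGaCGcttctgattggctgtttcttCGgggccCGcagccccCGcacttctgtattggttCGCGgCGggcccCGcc
Ptgir: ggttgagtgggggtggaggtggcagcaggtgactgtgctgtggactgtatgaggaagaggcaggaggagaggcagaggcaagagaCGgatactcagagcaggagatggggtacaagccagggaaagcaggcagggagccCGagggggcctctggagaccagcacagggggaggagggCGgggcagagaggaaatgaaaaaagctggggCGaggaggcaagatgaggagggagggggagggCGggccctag

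RefSeq promoter entries matched 6 of the 8 genes, and over 32851 mouse promoters of the same length the median was 52.4% GC with 6 CG dinucleotides. The Ece1 stretch was rich in CG, with 22 at 66.8% GC, and the Pde5a stretch was alike, with 22 at 68.4% GC. The RefSeq start used for Pde5a lies 211 bases inside the gene as placed below, so most of its stretch falls within the gene. The observed over expected CG ratio was 0.79 for Ece1 and 0.75 for Pde5a, above 80.2% and 77.5% of all promoters. Prkg1 held 9 CG at 55.2% GC, Edn1 9 at 50.4%, Ednra 6 at 54.8% and Ptgir 5 at 63.6%. The GC content was above that of 88.4% of all promoters for Pde5a, 85.8% for Ece1, 80.0% for Ptgir, 59.0% for Prkg1, 57.8% for Ednra and 42.7% for Edn1. Searched on both strands, the GC box GGGCGG, present in 32.7% of all promoters, was found in Pde5a, in Prkg1 at bases -66 to -61 from the start, and in Ptgir at -76 to -71 and -13 to -8. A GATA motif spelled AGATAA or TGATAA, present in 16.6%, was found in Prkg1 alone, at -38 to -33. The TATA box TATAAA (12.4% of promoters) and the AP-1 motif TGACTCA, whose other strand reads TGAGTCA (4.46%), were in none of the 6.

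Compared per kilobase of annotated exon (RPKM), the 8 genes spanned a wide range of levels in these lungs. Pde5a was the most abundant at 43.0 ± 1.89 RPKM in Mll3 KO and 45.9 ± 4.14 RPKM in WT lungs (SD, n = 3 each). Its lowest library lay above the highest of Ece1, which was at 31.8 ± 1.58 RPKM in Mll3 KO and 36.1 ± 1.74 RPKM in WT lungs. Ednra followed at 33.4 ± 2.68 RPKM in Mll3 KO and 30.2 ± 2.97 RPKM in WT lungs, and the libraries of Ece1 and Ednra overlapped. Edn1, Nos3, Prkg1 and Ptgis formed a lower tier, with means over all 6 libraries of 9.54, 7.52, 5.77 and 5.64 RPKM, and each overlapped its neighbours in that order. Ptgir was the lowest at 1.14 ± 0.31 RPKM in Mll3 KO and 0.75 ± 0.19 RPKM in WT lungs, with every library below the lowest of Ptgis. In both genotypes the receptor of endothelin was thus higher per kilobase than its ligand, and the receptor of prostacyclin lower than the synthase.

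**Figure D1:**
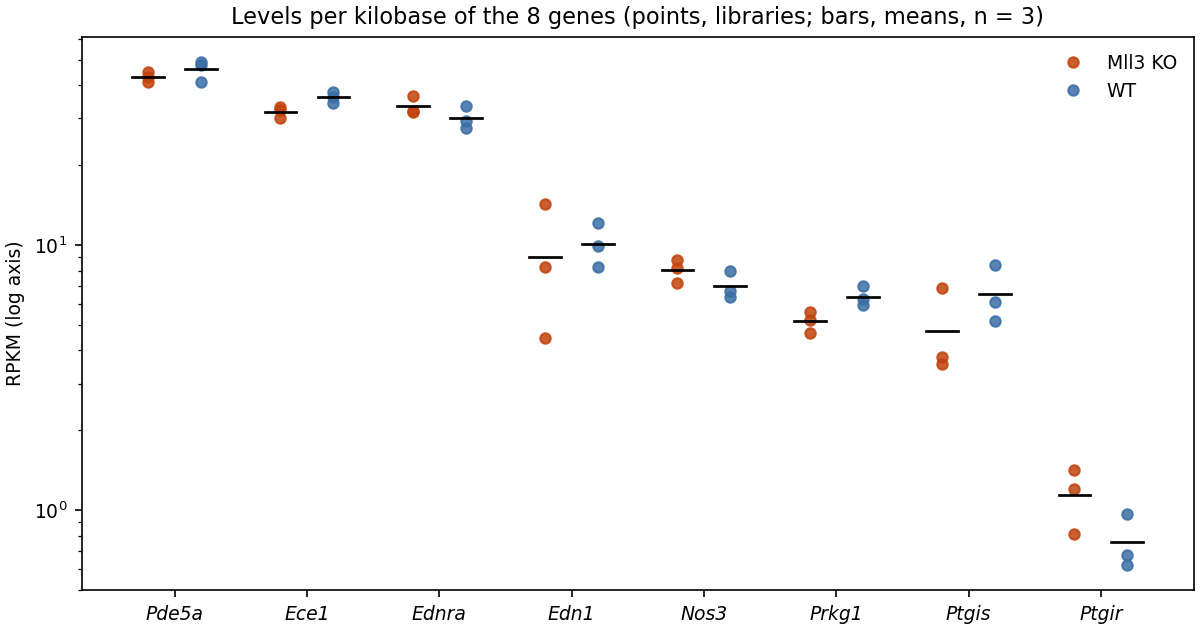
RPKM of the 8 genes on a log axis, Mll3 KO left of WT for each gene. Points are libraries and bars are means (n = 3). The genes fall into a high tier (Pde5a, Ece1, Ednra), a lower tier in which neighbours overlap (Edn1, Nos3, Prkg1, Ptgis), and Ptgir below all libraries of the others.

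Among the nitric oxide genes, Nos3, the endothelial nitric oxide synthase (ENSMUSG00000028978, protein coding, mm10 chr5:24364810-24384474, plus strand), had 36.1, 33.8 and 29.7 CPM in Mll3 KO lungs 1 to 3, against 26.3, 32.8 and 27.7 CPM in WT lungs 1 to 3. Mll3 KO 1 and Mll3 KO 2 were the highest of the 6 libraries, and Mll3 KO 3 lay below WT 2, so the genotypes overlapped. Its log2 fold change was 0.20 ± 0.11 (SE), with a 95% interval of -0.04 to 0.44 (edgeR adjusted p = 0.56). It was 0.30 within the prefix that holds Mll3 KO 1 and 0.19 within the other. It was 0.13 without WT 1, the lowest library, and also without Mll3 KO 1, the highest.

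Prkg1, the cyclic GMP-dependent kinase that relaxes vascular smooth muscle (ENSMUSG00000052920, protein coding, mm10 chr19:30564489-31765033, minus strand), had 51.4, 57.5 and 61.7 CPM in Mll3 KO lungs 1 to 3, against 68.9, 76.9 and 65.5 CPM in WT lungs 1 to 3. All 3 Mll3 KO libraries were below all 3 WT libraries, with a gap of a few CPM between Mll3 KO 3 and WT 3. The means were 56.9 ± 5.19 CPM in Mll3 KO and 70.4 ± 5.88 CPM in WT lungs (SD, n = 3 each), and the log2 fold change was -0.31 ± 0.09 (SE) with a 95% interval of -0.51 to -0.11. This was the lowest unadjusted p of the 8 genes (0.0056), and the edgeR adjusted p was 0.21. Over the other settings with a filter on low counts, the adjusted p ran from 0.095 in DESeq2 to 0.52 without WT 1. Without any filter on low counts it was 0.035, at the same log2 fold change of -0.31, and Prkg1 was then the 1 of the 8 genes that passed. The difference was -0.50 within the prefix that holds Mll3 KO 1 and -0.14 within the other.

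Pde5a, the phosphodiesterase that degrades cyclic GMP in smooth muscle (ENSMUSG00000053965, protein coding, mm10 chr3:122728947-122859374, plus strand), had 420.5, 406 and 443 CPM in Mll3 KO lungs 1 to 3, against 467, 481 and 405 CPM in WT lungs 1 to 3. WT 1 and WT 2 were the highest libraries and WT 3 the lowest, with the Mll3 KO libraries between them. A log2 fold change of -0.09 ± 0.08 (SE) was estimated, with a 95% interval of -0.28 to 0.09 (edgeR adjusted p = 0.75). It was the only gene of the 8 whose differences within the prefixes had opposite signs, -0.17 and 0.07. The estimate was -0.05 without WT 2 and -0.17 without WT 3.

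**Figure D2:**
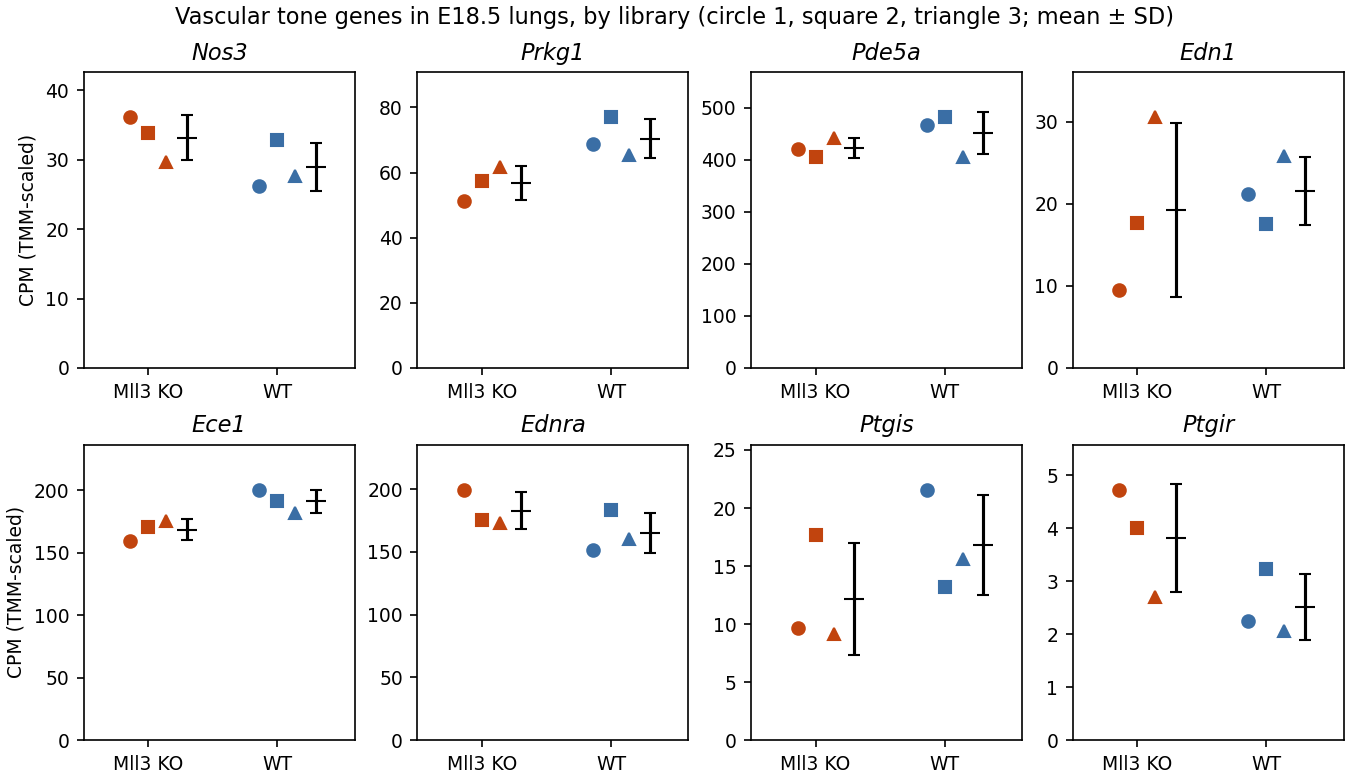
CPM after TMM scaling of each of the 8 genes in each library, Mll3 KO left of WT, with the mean ± SD of 3 libraries beside the points. The Mll3 KO points lie below all WT points for Prkg1 and Ece1 and overlap them for the other 6 genes, and the 3 Mll3 KO libraries of Edn1 run from 9.50 to 30.6 CPM.

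Of the endothelin genes, Edn1, which encodes the precursor of endothelin-1 (ENSMUSG00000021367, protein coding, mm10 chr13:42301476-42307990, plus strand), had 9.50, 17.7 and 30.6 CPM in Mll3 KO lungs 1 to 3, against 21.3, 17.6 and 25.8 CPM in WT lungs 1 to 3. The highest and the lowest of the 6 libraries were both Mll3 KO. The coefficient of variation was 55.2% among Mll3 KO and 19.1% among WT libraries, where the medians over 11303 genes of at least 10 CPM were 7.32% in Mll3 KO and 5.74% in WT. Its log2 fold change of -0.17 ± 0.46 (SE) had the widest 95% interval of the 8 genes, -1.36 to 1.02 (edgeR adjusted p = 0.94). The estimate was -0.54 in the fit with the prefix term, and -1.02 and -0.15 within the prefixes. Mll3 KO 1 decided its sign: without that library the log2 fold change was 0.16, and without Mll3 KO 3 it was -0.68; it was -0.11 without Mll3 KO 2, -0.30 without WT 2 and -0.025 without WT 3.

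Ece1, the endothelin-converting enzyme that cuts big endothelin to its active form (ENSMUSG00000057530, protein coding, mm10 chr4:137862237-137965229, plus strand), had 159, 171 and 175 CPM in Mll3 KO lungs 1 to 3, against 201, 191 and 182 CPM in WT lungs 1 to 3. Every Mll3 KO library was below every WT library. The means were 168 ± 8.40 CPM in Mll3 KO and 191 ± 9.23 CPM in WT lungs (SD, n = 3 each). Its coefficient of variation, 4.98% in Mll3 KO and 4.82% in WT, was the smallest of the 8 genes in WT, and in Mll3 KO only that of Pde5a was smaller. The log2 fold change was -0.18 ± 0.07 (SE), with a 95% interval of -0.33 to -0.04 (unadjusted p = 0.020, edgeR adjusted p = 0.34). It was -0.30 within the prefix that holds Mll3 KO 1 and -0.07 within the other.

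Ednra, the endothelin A receptor of smooth muscle (ENSMUSG00000031616, protein coding, mm10 chr8:77663031-77724464, minus strand), had 199.7, 176 and 173 CPM in Mll3 KO lungs 1 to 3, against 152, 183 and 161 CPM in WT lungs 1 to 3. Mll3 KO 1 was the highest, but WT 2 was above the other Mll3 KO libraries. The log2 fold change was 0.15 ± 0.09 (SE), with a 95% interval of -0.04 to 0.34 (edgeR adjusted p = 0.59). It was 0.075 without Mll3 KO 1, 0.087 without WT 1 and 0.22 without WT 2. In the point estimates the ligand's converting enzyme was lower and the receptor higher in Mll3 KO, with no call for either.

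In the prostacyclin pair, Ptgis, the prostacyclin synthase (ENSMUSG00000017969, protein coding, mm10 chr2:167191805-167240604, minus strand), had 9.67, 17.7 and 9.14 CPM in Mll3 KO lungs 1 to 3, against 21.6, 13.2 and 15.6 CPM in WT lungs 1 to 3. Mll3 KO 2 was the second highest of the 6 libraries while the other Mll3 KO libraries were the lowest. The log2 fold change was -0.47 ± 0.31 (SE), with a 95% interval of -1.21 to 0.28 (edgeR adjusted p = 0.66). Without Mll3 KO 2 it was -0.84 and without WT 1 it was -0.25, with edgeR adjusted p-values of 0.24 and 0.95, and without Mll3 KO 3 it was -0.30.

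Ptgir, the prostacyclin receptor (ENSMUSG00000043017, protein coding, mm10 chr7:16906490-16910905, plus strand), had 113, 82 and 58 reads in Mll3 KO lungs 1 to 3, against 50, 74 and 44 reads in WT lungs 1 to 3. These were 4.73, 4.01 and 2.71 CPM in Mll3 KO lungs, against 2.26, 3.22 and 2.07 CPM in WT lungs, and Mll3 KO 3 lay below WT 2. The log2 fold change, 0.60 ± 0.26 (SE), was the largest of the 8 genes, with a 95% interval of 0.03 to 1.17 (unadjusted p = 0.042, edgeR adjusted p = 0.44). It was 0.79 within the prefix that holds Mll3 KO 1 and 0.65 within the other. Its reads were the fewest of the 8 genes. Over the 6 refits without 1 library it ran from 0.41 to 0.81.

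**Figure D3:**
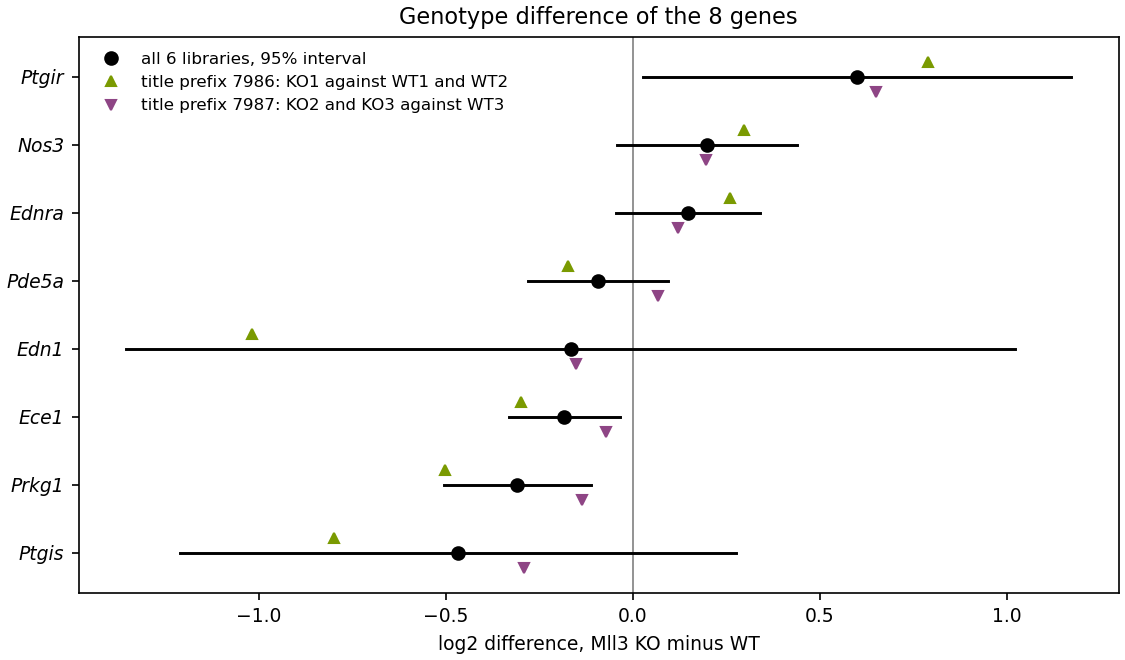
log2 difference of Mll3 KO minus WT for the 8 genes: black points with 95% intervals are the edgeR estimates from all 6 libraries, and triangles are differences of mean log2 CPM within each title prefix, with no test. The intervals of Ptgir, Prkg1 and Ece1 lie on 1 side of 0. Of the 8 genes 7 have the same sign in both prefixes, and the share among all tested genes was not worked out. One prefix holds only 1 Mll3 KO library and the other only 1 WT library.

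Around these 8 genes, 70 further genes of the same routes were listed by function, of which 66 were tested. None of the 66 passed (edgeR, same threshold), and 13 had an unadjusted p under 0.05, where 10.7% of all tested genes did. DESeq2 called 2 of them lower in Mll3 KO, where it called 2.12% of the genes for which it gave an adjusted p. With the prefix term edgeR called 1 higher and 4 lower, against 3.28% of all tested genes. Without a filter on low counts edgeR called 3 lower, against 103 higher and 340 lower among all 34615 genes tested. On log2 of the normalized values plus 1, limma called 1 lower, against 16 higher and 80 lower among 19042. In point estimate 20 were higher and 46 lower in Mll3 KO, with a median log2 fold change of -0.12 beside 0.01 over all tested genes, and the genotypes did not overlap in 14, where they did not in 17.0% of all tested genes. Nppa, Nppb, Edn2 and Ece2 had too few reads to be tested, with 0 to 21 reads per library.

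Among 28 nitric oxide and cyclic GMP genes, 9 were higher and 19 lower, and 7 had an unadjusted p under 0.05. Cav1, which encodes the caveolin that binds and restrains endothelial nitric oxide synthase, had 945, 916 and 1059 CPM in Mll3 KO lungs 1 to 3, against 1354, 1282 and 1336 CPM in WT lungs 1 to 3. All Mll3 KO libraries were below all WT libraries, at a log2 fold change of -0.44 ± 0.09 (SE, edgeR adjusted p = 0.066). The adjusted p of Cav1 was 0.029 in the fit with the prefix term and 4.2e-06 in DESeq2. Nostrin, which brings the synthase inside the cell, was at a log2 fold change of -0.37 (edgeR adjusted p = 0.15), and its DESeq2 adjusted p was 0.032. Ass1, which recycles citrulline toward the substrate arginine, was at -0.48 (edgeR adjusted p = 0.20; 0.017 with the prefix term), and Hsp90aa1, a chaperone of the synthase, at -0.24 (edgeR adjusted p = 0.34; 0.022 with the prefix term). With the prefix term 2 other genes were called. Ddah2, which breaks down an inhibitor of the synthase, was higher in Mll3 KO (adjusted p = 0.035), and the kinase gene Prkg2 was lower (adjusted p = 0.045). Without that term Ddah2 was at 0.17 with overlapping genotypes (edgeR adjusted p = 0.71), and Prkg2 at -0.45 (edgeR adjusted p = 0.45). Neither passed in DESeq2 (adjusted p = 0.83 for Ddah2 and 0.19 for Prkg2). Ddah2, Prkg2, Arg1, Ptgs2 and the receptor subunits that follow are named after their values were seen. Arg1, an arginase that draws on the same arginine, had 1.72, 1.42 and 2.24 CPM in Mll3 KO lungs, against 17.9, 3.96 and 4.33 CPM in WT lungs, with WT 1 far above the rest (edgeR adjusted p = 0.38). The main subunits of the nitric oxide receptor had higher mean levels per kilobase, in either genotype, than any of the 8 genes. Gucy1a1 was at 61.2 RPKM in Mll3 KO and 62.2 RPKM in WT lungs (log2 fold change -0.02 ± 0.09 SE), and Gucy1b1 at 47.6 RPKM in Mll3 KO and 51.7 RPKM in WT lungs (-0.12 ± 0.09 SE).

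Natriuretic peptides raise cyclic GMP by another route, and 1 of their 5 tested genes had an unadjusted p under 0.05. Npr2 was at a log2 fold change of 0.18 (edgeR adjusted p = 0.40) with no overlap, Npr1 at 0.15, the clearance receptor Npr3 at -0.18, and the peptide-processing protease Corin at 0.27. In the 3 further endothelin genes tested the genotypes did not overlap, as in 17.0% of all tested genes, and 0 passed in edgeR. Ednrb, the endothelin B receptor, which clears endothelin and stimulates nitric oxide release in endothelium, had 268, 201 and 203 CPM in Mll3 KO lungs 1 to 3, against 199, 193 and 183 CPM in WT lungs 1 to 3 (log2 fold change 0.23, edgeR adjusted p = 0.50). Edn3, another endothelin ligand, was at -0.22 (edgeR adjusted p = 0.40). Mme, the membrane protease neprilysin that degrades small peptides including endothelins, was at -0.33 (edgeR adjusted p = 0.39), with Mll3 KO 1 the lowest at 76.3 CPM. Single libraries moved several of these estimates: without Mll3 KO 1, Ednrb was at 0.076, Mme at -0.19 and Npr3 at -0.062. Without Mll3 KO 2 Edn3 was at -0.13, without Mll3 KO 3 Npr3 at -0.29, without WT 1 Corin at 0.16 and without WT 3 Npr1 at 0.085.

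In the prostanoid list 5 of 15 genes were higher and 10 lower, and 2 had an unadjusted p under 0.05. Tbxas1, the synthase of thromboxane, a vasoconstrictor prostanoid, had 2.72, 2.59 and 1.91 CPM in Mll3 KO lungs 1 to 3, against 4.25, 4.05 and 3.86 CPM in WT lungs 1 to 3. It was lower in every Mll3 KO library, at a log2 fold change of -0.75 ± 0.19 (SE, edgeR adjusted p = 0.17). Ptgs1, the cyclooxygenase that feeds both synthases, was at -0.14 and was far more abundant (28.1 RPKM in Mll3 KO, 31.0 RPKM in WT) than Ptgs2 (0.47 RPKM in Mll3 KO, 0.55 RPKM in WT). The prostaglandin transporter Slco2a1 was at -0.22 and the prostaglandin-degrading Hpgd at -0.36, both without passing. In the list of contraction and membrane potential 13 of 15 genes were lower, with a median of -0.11. An unadjusted p under 0.05 was reached by 1, where 10.7% of all tested genes reached it. The genotypes did not overlap in 1, where they did not in 17.0% of all tested genes. The calcium release channel Itpr1 was at a log2 fold change of -0.17, the cation channel Trpc6 at -0.22, and the regulatory myosin light chain Myl9 at -0.49 (edgeR adjusted p = 0.60). Without Mll3 KO 1 Slco2a1 was at -0.095 and Itpr1 at -0.10, without Mll3 KO 2 Trpc6 at -0.14, and without WT 1 Hpgd at -0.16 and Myl9 at -0.15.

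**Figure D4:**
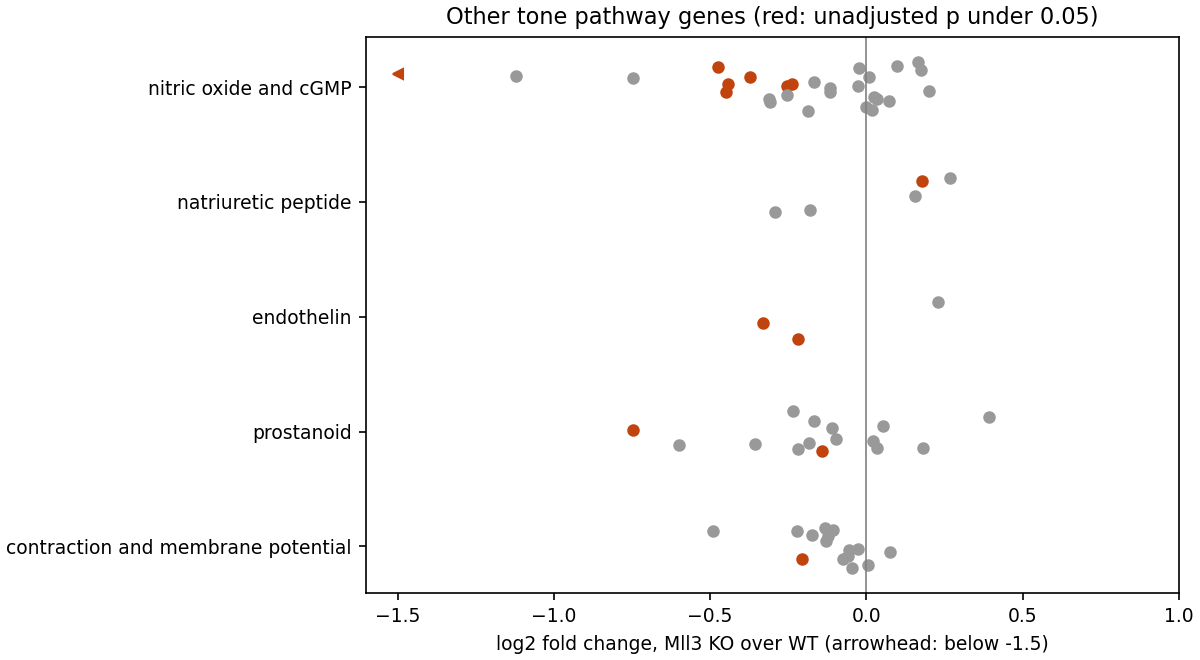
log2 fold change of Mll3 KO over WT for the 66 other tested genes, 1 row for each list; each point is a gene, red where the unadjusted p was under 0.05, and the arrowhead is Arg1 at -2.28. No gene passed the adjusted threshold, and 46 of the 66 lie left of 0, most of them within 0.5.

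Marker genes of vascular and other cell types were all detected, so none of the lists below has a member at 0. Which cells carry the 8 genes was not measured. The summed level of 13 endothelial markers was 2595 to 2748 CPM in Mll3 KO and 2699 to 3224 CPM in WT lungs, and it overlapped. Of these markers 0 passed in edgeR with 4 at an unadjusted p under 0.05, and Cldn5 (-0.23, DESeq2 adjusted p = 0.046), a tight junction gene, and Emcn (-0.24), a sialomucin gene, had the lowest p. The 10 smooth muscle markers summed to 426 to 587 CPM in Mll3 KO and 459 to 1088 CPM in WT lungs, with WT 1 alone at 1088 and the others at or below 588. Acta2 and Tagln, both contractile genes, were at -0.60 and -0.55 without passing, and at -0.23 and -0.15 without WT 1. The 6 pericyte markers summed to 532 to 557 CPM in Mll3 KO and 505 to 606 CPM in WT lungs, with 3 markers higher and 3 lower in Mll3 KO in point estimate. The 8 capillary endothelial markers summed to 1066 to 1147 CPM in Mll3 KO and 1151.2 to 1253 CPM in WT lungs and did not overlap, the nearest libraries being at 1147 CPM in Mll3 KO 3 and 1151.2 CPM in WT 3. The largest members were Tbx2, at 435 CPM in Mll3 KO and 418 CPM in WT lungs, and Kitl, at 269 and 361 CPM. The mean sums, 1102 CPM in Mll3 KO and 1191 CPM in WT lungs, lay about as far apart as the means of Kitl. In that list 4 markers were higher and 4 lower in point estimate; Car4, a carbonic anhydrase of alveolar capillaries, fell (log2 fold change -1.05, edgeR adjusted p = 0.035), a call that held in 1 of 6 refits without a library, and Kitl was at -0.42 without passing. In the 5 macrophage markers the sums were 123 to 131 CPM in Mll3 KO and 136 to 150 CPM in WT lungs, and these did not overlap. The largest of these markers was Mrc1, at 50.4 CPM in Mll3 KO and 60.9 CPM in WT lungs. In point estimate 4 of the 5 were lower and 1, Cd68 (0.09), was higher in Mll3 KO. The fibroblast, alveolar epithelial, cardiac, red cell and platelet sums overlapped, and among those lists Pdpn, an alveolar type 1 cell gene, was the 1 gene that fell (-0.74, edgeR adjusted p = 0.039; lost in each of the 6 refits). The alveolar sum is mostly Sftpc, at 12164 CPM in Mll3 KO and 12347 CPM in WT lungs. In 5 of the 9 markers of that list the genotypes did not overlap, where they did not in 17.0% of all tested genes. These 5 went both ways. Ager (-0.45) and Hopx (-0.41), of type 1 cells, were lower, with DESeq2 adjusted p-values of 2e-05 and 0.0015. Epcam (0.37), of all epithelium, was higher (DESeq2 adjusted p = 0.021), while Cdh1, another epithelial marker of the list, was at -0.015 and overlapped. None of Ager, Hopx, Epcam and Cdh1 passed in edgeR, and all are named after their values were seen. Cav1, which type 1 cells also express, was lower with the type 1 markers, and their part in its level was not tested. Of the markers with the lowest p in the other lists, these were lower in Mll3 KO without passing: Higd1b (-0.35) and Notch3 (-0.09) of pericytes, Col1a2 (-0.18) of fibroblasts, Mrc1 (-0.27) and Adgre1 (-0.35) of macrophages, Hbb-bs (-0.19) and Hba-a1 (-0.15) of red cells, and Ppbp (-0.59) of platelets. Those higher without passing were Napsa (0.42) of alveolar type 2 cells, Wnt2 (0.18) of fibroblasts, Myl7 (0.54) and Myh6 (0.72) of cardiac muscle, and Itga2b (0.39) of platelets. The part of these cell types in the levels of the 8 genes was not tested beyond the ratios that follow.

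Each gene was also read as its CPM over the summed CPM of the markers of 1 cell type. This was endothelium for Nos3, Edn1 and Ece1, and smooth muscle for the other 5. The cell type was set by where each gene is usually expressed, and was not measured here. In WT 1, where the smooth muscle sum was highest at 1088 CPM, Ednra was at its lowest and Ptgis at its highest. With 3 against 3 libraries the two-sided exact permutation test cannot go below p = 0.1. The Nos3 ratio was higher in every Mll3 KO library than in every WT library, by 0.34 on the log2 scale (exact p = 0.1); of all genes set over this marker sum 23.3% did not overlap, and 21.1% were so and higher in Mll3 KO. The Ece1 ratio differed by -0.04 and overlapped (exact p = 0.5), where Ece1 itself did not overlap, and the Edn1 ratio by -0.16 (exact p = 0.9). The Ptgir ratio to smooth muscle was higher in every Mll3 KO library, by 0.98 (exact p = 0.1), where 5.60% of all genes did not overlap and 5.46% were so and higher. Without WT 1, the library with the high smooth muscle sum, the Ptgir difference was 0.56. The Ptgir ratio overlapped over pericyte markers (0.61, exact p = 0.2) and over the mean of log2 smooth muscle markers (0.97, exact p = 0.2), and the Nos3 ratio overlapped over capillary markers (0.31, exact p = 0.2). The ratios of Prkg1 (0.08, exact p = 0.8), Pde5a (0.30, exact p = 0.7), Ednra (0.54, exact p = 0.3) and Ptgis (-0.11, exact p = 0.6) overlapped. Without WT 1 the ratio of Prkg1 was -0.29, of Pde5a -0.03, of Ednra 0.12 and of Ptgis -0.27.

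**Figure D5:**
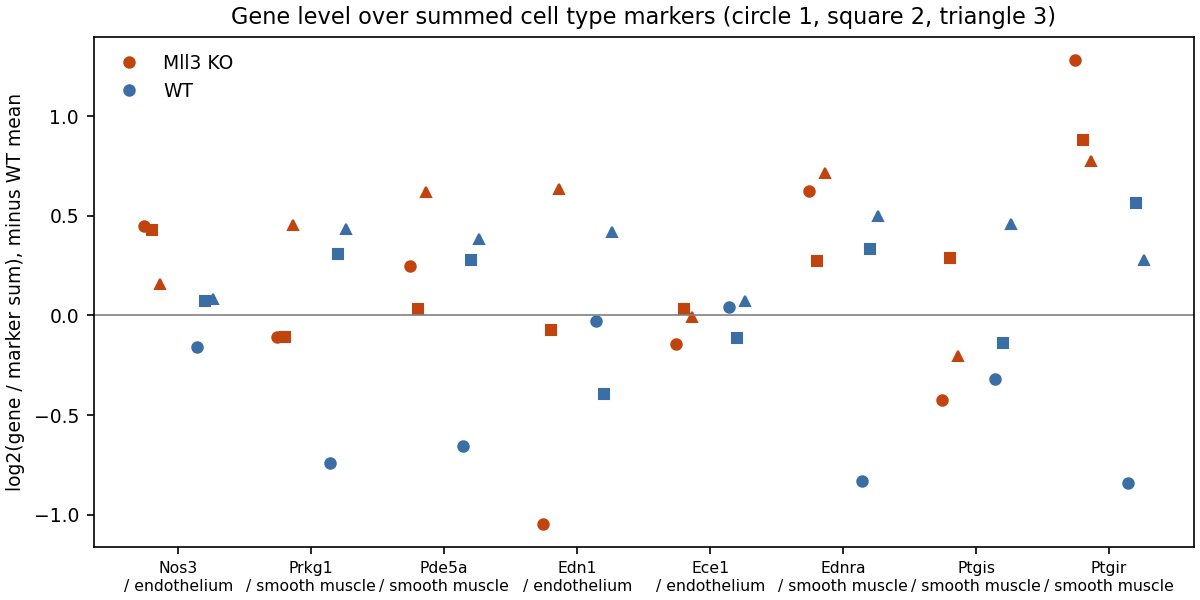
log2 of each gene's CPM over the summed CPM of the named cell type markers, with the WT mean of each gene set to 0; Mll3 KO points are left of WT points. The Mll3 KO points lie above all WT points for Nos3 and Ptgir, and WT 1 (blue circle) is far below the other WT libraries for Prkg1, Pde5a, Ednra and Ptgir, 4 of the 5 genes set over smooth muscle markers.

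The genes whose pattern over the 6 libraries was most like that of Prkg1, among the 135 listed genes with a mean of at least 1 CPM, were the endothelial markers Kdr and Flt1, both receptors of vascular endothelial growth factor, and Car4. Over 6 libraries of log2 CPM, Pearson's r was 0.97 for Kdr, 0.95 for Flt1 and 0.93 for Car4, and Spearman's rank correlation was 1 for Kdr and 0.94 for both Flt1 and Car4. Without Mll3 KO 1 and WT 2, the libraries farthest from the Prkg1 median, r was 0.99, 0.89 and 0.99. That left only Mll3 KO 2, Mll3 KO 3, WT 1 and WT 3. These values are from the same 6 libraries by which the genes were picked for a high r, and r includes the difference between the genotypes. In both Prkg1 and Kdr the libraries ran, from high to low, WT 2, WT 1, WT 3, Mll3 KO 3, Mll3 KO 2 and Mll3 KO 1.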

How the data were processed

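RNA from 6 whole lungs was sequenced as strand-specific poly(A) libraries (75 bp single reads), per the labels' protocols. The submitters' processing notes name bcl2fastq 2.19.1, GSNAP, mm10, featureCounts 1.6.3 and DESeq2 1.24.0. Raw gene counts were deposited, made in reverse-stranded mode per the file headers. That table has 55513 rows, of which 92 are spike-ins with 1 read in all and were left out. The normalized table is a signal the authors made by dividing counts by a size factor per library. Multiplied back, 100% of its values were whole reads within 0.1, and edgeR on them gave the same 70 calls. Opposite-strand genes overlap exons of 5 of the 8 genes by 35 to 1334 bases.

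Here, counts were tested with edgeR 4.0.16 (R 4.3.3): filterByExpr (19042 genes, 99.8 to 99.9% of reads), TMM, robust quasi-likelihood fit, genotype as the only term, Benjamini-Hochberg adjustment at 0.05. The SE is the log2 fold change over the square root of F. RPKM uses the deposited gene lengths. Replicate numbers follow sample order and pair nothing. Alternatives were DESeq2 1.42.0, limma 3.58.1 on log2(normalized value + 1), other scalings and filters, a title prefix term, and each library left out; edgeR on recovered reads was added after seeing the data. The fit was tested on simulated data. The 8 genes and all lists were chosen with earlier results of these data known. Named genes are the 8, Kmt2c, the 4 lowest p in each pathway list, the 2 lowest in each marker list, and the 3 most like the lowest-p gene. Of these, 1 gene of the contraction list is not reported here.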

Additional observations from a re-analysis of the deposited data

How the results depend on the processing

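EdgeR on recovered reads used the same counts and so could only repeat the main fit. Counting it, 110 of 112 refits of the 8 genes kept both the direction and the side of the threshold. The exceptions were Edn1, at 0.16 without Mll3 KO 1 (range -0.68 to 0.16 over the refits without 1 library), and Prkg1, which passed with no filter on low counts (log2 fold change -0.31). So 1 of the 8 genes was called there and 0 elsewhere. With no filter 34615 genes were tested, against 19042 with it. The unadjusted edgeR p of Prkg1 was 0.00039 without the filter and 0.0056 with it. Over all genes, 12 were higher and 58 lower; DESeq2 called 60 and 289, no filter 103 and 340, and the replicate block by title prefix 142 and 483, while the other scalings, the 1 CPM filter, limma and recovered reads stayed within 1.5 times. Refits without 1 library called 0 to 5 higher and 0 to 36 lower; without WT 2 or WT 3 edgeR called 0, with 1954 and 1629 genes at an unadjusted p under 0.05. No paired analysis by replicate number was possible because the numbers follow sample order; with the prefix block none of the 8 genes passed and no sign turned.

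The direction of the ratios to cell type markers turned in 10 refits and held in 54. With pericyte in place of smooth muscle markers the Prkg1 ratio was -0.29 and the Pde5a ratio -0.065, Ednra 0.17, Ptgis -0.48 and Ptgir 0.61. Over the refits without 1 library the ratios ran from -0.29 to 0.29 for Prkg1, -0.030 to 0.49 for Pde5a, -0.56 to 0.28 for Edn1, -0.10 to 0.013 for Ece1, 0.12 to 0.79 for Ednra, 0.56 to 1.26 for Ptgir, 0.27 to 0.44 for Nos3 and -0.31 to 0.12 for Ptgis; the cause was not tested. Of the other named genes, Hba-a1 turned to 0.019 without Mll3 KO 2 (range -0.48 to 0.019). Of the 8 genes Ptgir had the fewest reads, 44 to 113 per library.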
